A study of Spirodela polyrhiza with 12 samples.

Results

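The transcripts described here are the 100 genes that stood highest in leaf samples of the giant duckweed Spirodela polyrhiza, a small floating water plant, at indoor temperature. They were chosen by their measured level: the 18099 genes in the deposited table were ranked by mean FPKM over the 4 indoor-temperature libraries, and the first 100 were taken. FPKM counts sequenced fragments per transcript length and per size of the library, so it allows levels of different genes to be compared. The series held 12 RNA libraries, 4 each from leaves labelled as indoor, middle and high temperature. The title of the series names aquaporins, which are water channels, and heat stress as its subject. The indoor group was the control, and no genotype or agent other than the temperature is named in the labels. The sources used here give neither the temperatures in degrees nor the length of exposure, and do not say whether a group's libraries derive from different cultures. The p-values therefore reflect only how far these libraries differ, and that spread may be technical.

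In green leaves the most abundant messenger RNAs typically encode proteins of photosynthesis, protein synthesis and stress protection, and many of them belong to families of closely related genes in the nuclear genome. Selection by the poly(A) tail, which the labels describe, favours such nuclear transcripts over those of the chloroplast. The files give identifiers without gene names, so no role can be assigned to any member here, and the labelled tissue was not checked against marker genes. Because leaf RNA was measured in bulk, fewer cells of a type and less RNA per cell cannot be told apart in any of the differences below.

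At indoor temperature the 100 members ranged from a mean FPKM of 14726 to 902. The leading member was Spipo14G0042700.v2, with FPKM values of 18447, 15357, 11603 and 13495 in indoor replicates 1 to 4. Its mean was 14726 ± 2916 (SD, n = 4), and its lowest indoor library exceeded the highest one of the next member. Spipo0G0112500.v2 followed with 7029, 7485, 7125 and 6169, and these 4 libraries lay close together. Spipo2G0074000.v2, the next by mean, did not share that evenness, with FPKM values of 4796, 1803, 13087 and 8003 in the same order of replicates. In indoor replicate 3 it stood above the leading member, at 13087 against 11603. Spipo16G0032900.v2 stood at 6053 ± 3119 and Spipo7G0029200.v2 at 5708 ± 1502. The ranks from the second to the fifth therefore did not separate beyond the spread between libraries. At the lower edge, ranks 99 and 100 had means of 907 ± 101.5 and 902 ± 118. The 2 genes just outside, which are no members, had means of 893 ± 583 and 885 ± 470. The edge of the list thus lay within the replicate spread.

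The members were short by the ratio of estimated count to FPKM, which is proportional to the transcript length used in the deposited values. Relative to the median of 12810 genes with a mean count of at least 100, the members had a median length of 0.416, and 83 of 100 were below that median. FPKM divides by this length, so ranking by FPKM itself favours short genes. Of the 100 members, 59 were also among the 100 genes of highest mean indoor count, which are not scaled to length.

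The indoor libraries that chose the members differed in which genes they placed highest. Each indoor library placed 81 to 86 members among its own 100 highest genes, and 59 members were there in every indoor library. In 7 members the highest indoor library exceeded the lowest by more than 10-fold, and in all 7 replicates 1 and 2 were above replicates 3 and 4. The widest was Spipo32G0004900.v2, with FPKM values of 5289, 1398, 90.3 and 110 in indoor replicates 1 to 4. Its mean of 1722 thus describes none of the 4 libraries, and its highest value is that of replicate 1. Counted in TMM-scaled values, which correct for a few genes taking up much of a library, 6 members differed by more than 2-fold between indoor replicates 1 and 2. Between replicates 3 and 4 it was 14 members, and between the other indoor pairs 14 to 25. Over all 15209 genes tested, 8.51% to 15.7% differed by as much in these pairs. At middle temperature the pair of replicates 1 and 3 and the pair of replicates 2 and 4 each differed in 4 members. The other middle pairs differed in 10 to 16 members, against 6.64% to 11.1% of the tested genes over all middle pairs. At high temperature the pairs differed in 10 to 24 members, against 9.63% to 14.5% of the tested genes. No member differed by more than 10-fold within the middle or the high group.

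The coefficient of variation of FPKM (SD as a percentage of the mean) summarised this spread over the list. Its median over the members was 25.9% in the indoor, 18.5% in the middle and 26.4% in the high group, against 21.2%, 19.5% and 25.1% over the genes tested. It exceeded 50% in 16, 5 and 17 members in the same order, against 12.1%, 7.21% and 14.4% of the genes tested. When the list was chosen again without each indoor library in turn, 93 to 95 of the 100 members returned.

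**Figure D1:**
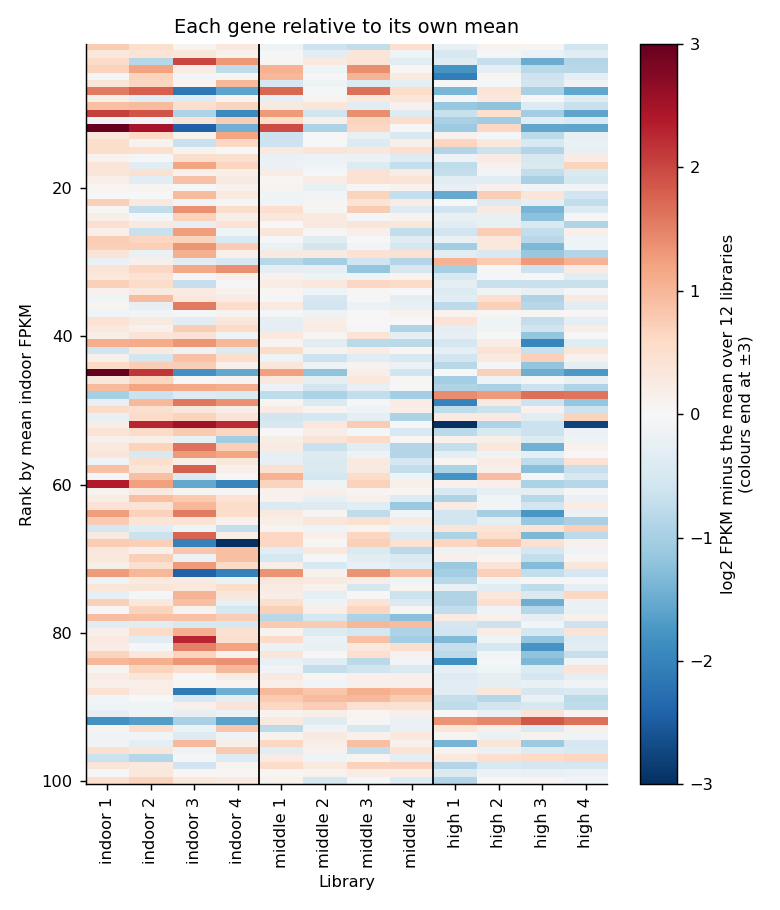
Colours show the log2 FPKM of each of the 100 genes in each library minus that gene's mean over the 12 libraries, with genes ordered by indoor rank from the top; red is above the gene's mean and blue below. Strong reds beside strong blues within the indoor columns mark the 7 members that differed by more than 10-fold among the indoor libraries.

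The mean share of the FPKM sum held by the members was lower in each warmer group, and the libraries of neighbouring groups overlapped. The share was 25.4%, 25.3%, 24.6% and 22.4% in indoor replicates 1 to 4, which is the level that chose them. It was 22.6%, 18.2%, 22.7% and 19.9% in the middle libraries and 15.7%, 20.4%, 15.9% and 17.3% in the high libraries. High replicate 2 lay among the middle libraries, so these groups overlapped. The means (SD, n = 4) were 24.4% ± 1.37 for indoor, 20.9% ± 2.23 for middle and 17.3% ± 2.18 for high temperature. The difference between high and middle, whose libraries had no part in the choice, was -3.51 percentage points and did not pass the test (two-sided exact permutation test, p = 0.0857, also 0.0857 after Benjamini-Hochberg adjustment over 3 library measures). As a share of the estimated counts the members held 14.6% ± 0.827, 12.5% ± 1.02 and 10.6% ± 1.20 in the same order of groups. The high against middle difference there was -1.91 percentage points, with the same exact permutation p of 0.0857 and n = 4 per group. With 4 libraries against 4 the smallest p possible is 0.0286.

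The share depends on what else is in the sum. The 10 genes of highest mean FPKM at high temperature, none of them a member, held 0.197% ± 0.0805 of the FPKM sum in the indoor, 1.41% ± 0.509 in the middle and 15.9% ± 2.21 in the high group. With these 10 genes left out of the sum, the members' share was 24.5% ± 1.38 in the indoor, 21.2% ± 2.33 in the middle and 20.6% ± 2.23 in the high group. The high and middle means then differed by less than the spread between libraries. This alternative was chosen after the values were seen. Its 10 genes were picked for high values in the high group and none is a member. Leaving them out can therefore only raise the members' share, and most so in that group. No leading genes of the middle group were left out, so the smaller difference follows in part from the choice.

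**Figure D2:**
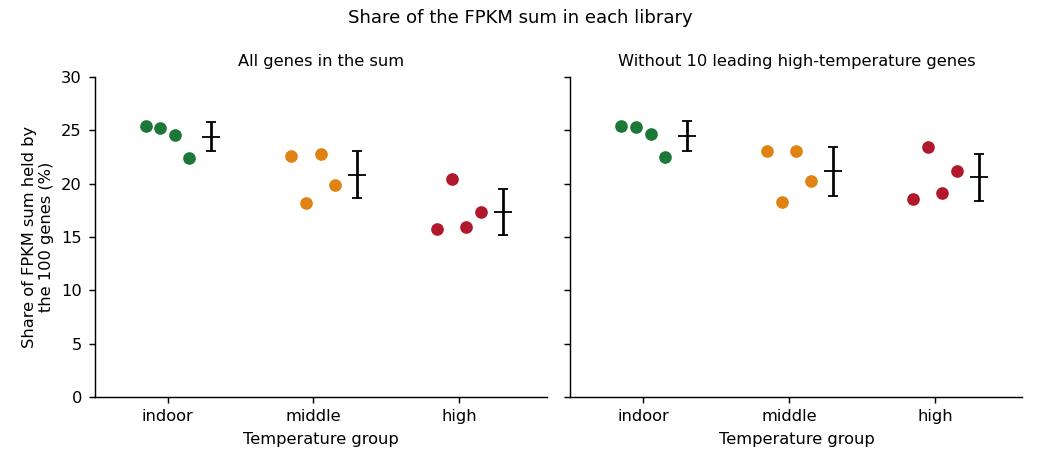
Points are libraries and the bars beside them the mean ± SD (n = 4) of the percentage of the FPKM sum held by the 100 genes, with all genes in the sum on the left and without the 10 leading high-temperature genes on the right. The high group averages 17.3% on the left and 20.6% on the right, while the middle group hardly moves, from 20.9% to 21.2%.

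By rank, most of the difference in share between middle and high temperature lay in the leading members. Ranks 1 to 10 held 7.41% ± 1.25 of the FPKM sum in the indoor, 6.48% ± 1.24 in the middle and 4.17% ± 0.818 in the high group. Ranks 11 to 50 held 10.5% ± 0.523, 8.24% ± 0.479 and 7.69% ± 0.922, and ranks 51 to 100 held 6.52% ± 0.539, 6.13% ± 0.571 and 5.48% ± 0.628. These differences between bands were not tested.

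The 100 highest genes of the warmer groups shared only part of the list. The indoor libraries chose the list, so a lower count elsewhere follows in part from that choice. Single indoor libraries held 81 to 86 members among their own 100 highest genes. Of the 100 members, 70 were among the 100 genes of highest mean FPKM at middle temperature and 49 at high temperature, and 48 were in all of these lists. Each middle library held 67 to 72 members among its own 100 highest genes, and each high library 42 to 57. The groups did not overlap in this count, with 69 ± 2.16 members in the middle and 48.5 ± 6.35 in the high group (SD, n = 4; exact permutation test, two-sided, p = 0.0286, the smallest possible, and 0.0857 after Benjamini-Hochberg adjustment over the 3 library measures, which misses 0.05). Of the indoor 10 highest genes, 7 were among the 10 highest at middle temperature and 0 at high temperature. The 51 members outside the high list had not become scarce. Their median rank at high temperature was 164, and the lowest placed, Spipo2G0110400.v2, ranked 850. All 100 members had an FPKM above 0 in every library, and the lowest value of any member was 35.0. The 51 genes that took their places at high temperature had a median indoor rank of 1548, and the 30 that did so at middle temperature had one of 262. The 100 genes of highest mean at high temperature held 42.7% ± 2.80 of the sum there, while the corresponding list at middle temperature held 23.3% ± 2.50 there.

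**Figure D3:**
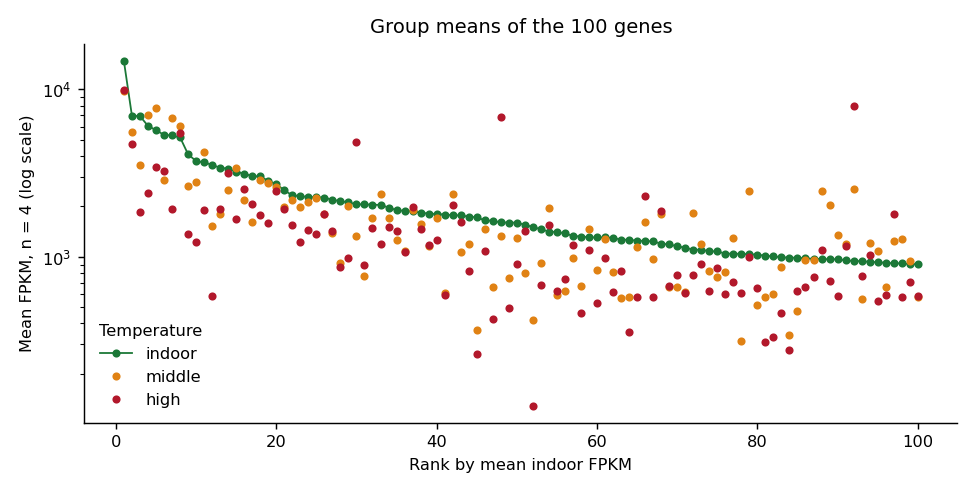
Points give the mean FPKM (n = 4, log scale) of each of the 100 genes at indoor, middle and high temperature against its rank at indoor temperature; the indoor points fall steadily because they set the rank. Most high-temperature points lie below the indoor line, with means lower than indoor in 87 of 100 genes, and a few lie well above it. With counts scaled by library totals, 82.7% of all tested genes also had a negative fold change between high and indoor temperature.

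High and middle temperature were compared by a test, since neither group took part in choosing the members. The direction of the list depended on the scaling between libraries. In deposited FPKM 68 members had a lower mean at high than at middle temperature, with a median ratio of 0.777. With counts scaled by library totals alone, 69 members had a negative log2 fold change, as did 88.7% of the tested genes. With TMM scaling, edgeR's quasi-likelihood test called 34 members higher and 1 lower at high temperature, where 15.9% of all tested genes were higher and 14.5% lower (Benjamini-Hochberg adjusted p under 0.05). Of the 34, 19 rose at least 2-fold, as did 6.63% of the tested genes. With library totals in place of TMM it called 7 higher and 27 lower, where 3.32% and 62.9% of all tested genes were called. After quantile normalization, which forces 1 common distribution of values on the libraries, limma called 3 higher and 43 lower, against 12.8% and 14.4% of the tested genes. Without any scaling beyond FPKM, 6 members had all high libraries above all middle ones and 26 had all below, against 3.08% and 54.9% of the tested genes. The TMM factors averaged 1.25 over the middle and 0.707 over the high libraries. A gene with equal FPKM in both groups is therefore about 0.82 higher at high temperature on the TMM-scaled log2 scale.

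Relative to the typical gene, the members had a higher median change with TMM or with library totals, but a lower one with quantile normalization. The median log2 fold change of the members was 0.46 with TMM and -0.37 with library totals, against 0.003 and -0.82 over all tested genes. With quantile normalization it was -0.61 against -0.04. The number of higher calls also moved with 1 library: it was 34 with all libraries, 21 without high replicate 4 and 39 without high replicate 1. The share of tested genes is not given for those fits, so nothing about the members in particular is read from these counts. With TMM scaling the median was -0.12 for ranks 1 to 10, 0.63 for ranks 11 to 50 and 0.45 for ranks 51 to 100; this difference between bands was not tested.

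**Figure D4:**
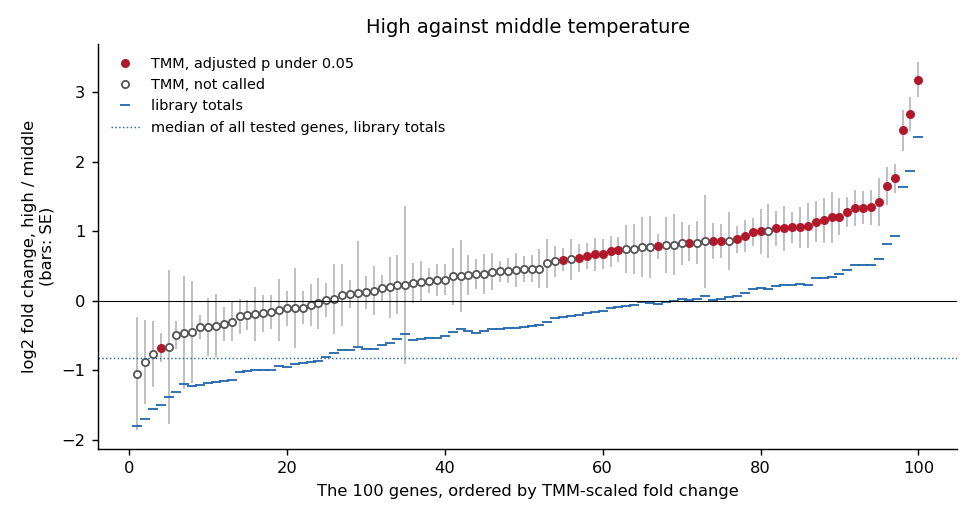
Circles are log2 fold changes between high and middle temperature with TMM scaling and bars their SE; filled circles mark members with an adjusted p under 0.05, and blue dashes show the same genes scaled by library totals. The dashes lie about 0.82 below the circles, so 34 higher calls become 7, and the dotted line marks the median of all tested genes with library totals, at -0.82.

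The calls that held under all 4 scalings run, TMM, library totals, quantile normalization and DESeq2's size factors, were few. In high against middle they were 3 members higher and 1 lower, against 3.28% and 10.9% of the genes tested. The largest rise was that of Spipo1G0122100.v2. Its FPKM was 1418, 1250, 1458 and 1188 in the middle libraries and 6418, 5827, 7646 and 7370 in the high libraries, and the groups were far apart. The log2 fold change was 3.18 ± 0.25 (SE; edgeR, Benjamini-Hochberg adjusted p = 2.88e-06), and it passed in all 20 alternatives, with values from 1.41 to 3.27. Spipo14G0052400.v2 stood at 1324, 1190, 1548 and 1285 in the middle libraries and at 4869, 4043, 5696 and 4868 in the high libraries. All high libraries again exceeded all middle ones, with a log2 fold change of 2.68 ± 0.24 (edgeR, Benjamini-Hochberg adjusted p = 7.64e-06) and it passed in the same 20 alternatives, with values from 1.03 to 2.78. The other member higher under all 4 scalings was Spipo15G0042300.v2, which lies outside the naming rule and was named after its values were seen. Its mean FPKM was 315 ± 65.1 in the middle and 604 ± 94.1 in the high group, both below the indoor mean of 1042 ± 53.5.

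The member called lower was Spipo23G0004200.v2. It stood at 1922, 2153, 2181 and 1893 in the middle libraries and at 687, 612, 953 and 632 in the high libraries, so the groups did not overlap. Its log2 fold change was -0.67 ± 0.21 with TMM scaling (edgeR, Benjamini-Hochberg adjusted p = 0.0263). This call was near the threshold: the direction held in all 20 alternatives, from -1.85 to -0.58, but 5 of them lost the call, with an adjusted p of up to 0.0749 (edgeR, Benjamini-Hochberg). They included the fits without high replicate 1, 2 or 4 and without middle replicate 3.

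Among the 5 highest members, no difference between high and middle temperature passed the test with TMM scaling. Spipo14G0042700.v2 had FPKM values of 9892, 7090, 6558 and 15474 in the middle libraries and 9425, 11671, 11331 and 7297 in the high libraries, and the groups overlapped widely. Its log2 fold change was 0.84 ± 0.31 with TMM (edgeR, Benjamini-Hochberg adjusted p = 0.056) and 0.02 with library totals, and over the 20 alternatives it lay between -1.05 and 1.12. It kept the first rank at middle temperature and was 11th at high temperature. Spipo0G0112500.v2 had means of 5577 ± 1184 in the middle and 4712 ± 619 in the high group. Its log2 fold change was 0.57 ± 0.22 with TMM and -0.25 with library totals. Spipo2G0074000.v2 was at 3548 ± 755 and 1862 ± 570, Spipo16G0032900.v2 at 7054 ± 3477 and 2391 ± 916, and Spipo7G0029200.v2 at 7790 ± 2659 and 3424 ± 1669. For these 3 the log2 fold changes were negative, at -0.13 ± 0.45, -0.77 ± 0.47 and -0.37 ± 0.42 with TMM and at -0.94, -1.56 and -1.19 with library totals. With library totals the last 2 passed the threshold. The first 2 members passed it in opposite directions by setting: DESeq2 called both higher, at 0.84 (adjusted p = 0.00745) and 0.57 (adjusted p = 0.0168). After quantile normalization limma called both lower, at -1.05 (adjusted p = 0.026) and -1.35 (adjusted p = 0.000308).

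The comparisons with indoor temperature are given as descriptions, because the indoor libraries chose the members for high values and lower values elsewhere follow in part from that choice. At middle temperature 73 members had a lower mean FPKM than at indoor temperature, with a median ratio of 0.788. Of the members, 16 were below 0.5 of the indoor mean, a count given without the share of tested genes, so nothing is read from it. The median log2 fold change with library totals was -0.34 over the members and 0.12 over all tested genes. With library totals 73 members had a negative log2 fold change, as did 43.4% of the tested genes. With TMM scaling 3 members were called higher and 28 lower than at indoor temperature by edgeR's test, where 19.2% and 17.7% of the tested genes were called. With library totals these were 5 and 25, where 22.3% and 11.9% were called. Under all 4 scalings 3 members were higher and 22 lower, as were 16.7% and 11.7% of the tested genes. At high temperature 87 members had a lower mean FPKM than at indoor temperature, with a median ratio of 0.636. Of the members, 27 were below 0.5 of the indoor mean, again without the share of tested genes, so nothing is read from that count. The median log2 fold change with library totals was -0.66 over the members and -0.73 over all tested genes. With library totals 87 members had a negative log2 fold change, as did 82.7% of the tested genes. With TMM scaling 13 members were called higher and 5 lower, where 17.1% and 15.8% of the tested genes were called. With library totals 5 were higher and 53 lower, where 7.69% and 57.2% were called. Under all 4 scalings 4 were higher and 5 lower, as were 7.64% and 14.7% of the tested genes. The 5 lower calls with TMM numbered 3 without high replicate 3 and 3 without indoor replicate 3. They numbered 7 without high replicate 4 and 7 without indoor replicate 2. The share of tested genes is not given for these fits, so nothing is read from the counts.

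Spipo4G0005400.v2, ranked 92, had the largest rise over indoor temperature in both warmer groups. Its FPKM was 746, 820, 1345 and 864 in the indoor libraries, 3210, 2053, 2687 and 2276 in the middle libraries and 6683, 7234, 9659 and 8348 in the high libraries. None of the groups overlapped, and the gene ranked 14th at high temperature. It was the only member called higher at both steps with TMM scaling, with log2 fold changes of 1.32 ± 0.28 from indoor to middle and 2.45 ± 0.29 from middle to high. Spipo1G0122100.v2, described above, was next at high temperature, 2.79 ± 0.24 above indoor on the log2 scale. At middle temperature the next largest fitted difference above indoor was that of Spipo11G0020300.v2, which was not called with TMM scaling. Its FPKM was 1699, 1440, 288 and 453 in the indoor libraries, 2473, 2222, 2649 and 2495 in the middle libraries and 1004, 1582, 887 and 928 in the high libraries. The middle libraries were above all others, while the high libraries lay within the indoor range. Its indoor spread is wide, and its log2 fold change between middle and indoor was 1.21 ± 0.46 with TMM. Over 20 alternatives it lay between 0.96 and 2.05, and 9 of them passed the threshold.

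Spipo2G0110400.v2 had the largest fall at high temperature. Its FPKM was 411, 1792, 2107 and 1719 in the indoor libraries, 261, 453, 621 and 353 in the middle libraries and 35.0, 193, 236 and 53.2 in the high libraries. Indoor replicate 1 lay within the middle range, and the high libraries were below all others. It was the only member whose mean at high temperature was under 0.1 of the indoor mean, with a log2 fold change of -2.85 ± 0.64 with TMM. Spipo32G0004900.v2 had the other large negative fold change in both comparisons, which passed the threshold neither with TMM nor in any of 20 alternatives. Its means were 1722 at indoor temperature, 363 ± 270 at middle and 262 ± 199 at high temperature. Indoor replicates 3 and 4, at 90.3 and 110, were close to the lowest high libraries, at 96.2 and 115. High minus indoor came to -2.09 on the log2 scale, with an SE of 1.18. It moved between -2.65 and -0.40 when single libraries were left out.

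Over both steps with TMM scaling, 52 members were called neither between indoor and middle nor between middle and high temperature, a course held by 48.5% of the tested genes. Another 17 were higher at the second step alone, against 6.61% of the tested genes, and 12 were lower at the first step alone, against 10.6%. A further 16 were lower at middle than at indoor and higher again at high temperature, against 6.38%. These shares are printed as background and nothing is read from them: the first step uses the indoor libraries that chose the members, and a low value in the middle libraries enters both calls. The 16 had median FPKM values of 1324, 662 and 800 in the order of temperature. In deposited FPKM all 16 had a higher mean at high than at middle temperature, but of the 17 higher at the second step alone only 9 did. Those 17 had median FPKM values of 1838, 1577 and 1614. For the 16, with TMM scaling the median log2 fold change between high and indoor was 0.05. The 12 that were lower at the first step alone had medians of 1484, 705 and 602. The other 3 courses held 1 member each: Spipo4G0005400.v2 rose at both steps, Spipo16G0054600.v2 rose at the first step, and Spipo23G0004200.v2 rose and then fell. Spipo16G0054600.v2, named here because its course held 1 member, had mean FPKM values of 1036 ± 68.9, 2486 ± 200.5 and 1004 ± 199 in the order of temperature. With quantile normalization 30 members were called at neither step. The share of tested genes with that course under this scaling is not given, so nothing is read from the count.

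Some members carried neighbouring identifiers, a grouping made after the values were seen and given without a test. With a shared part before the letter G and numbers at most 1000 apart, 39 members fell into 16 runs of 2 to 5. The files do not say whether such numbers mean neighbouring or similar genes, and the deposited counting may have divided reads between near-identical copies. A sum of FPKM over a run is unaffected by such a division only where the copies have the same length, since FPKM divides by length. Relative lengths ran from 0.29 to 0.411 in the Spipo0G0038400.v2 run and from 0.141 to 0.185 in the Spipo23G0000200.v2 run. Their sums may therefore still depend on how reads were divided. The 5 members from Spipo0G0038400.v2 to Spipo0G0038900.v2 shared 1 indoor pattern except for the last. The first of them stood at 8973, 10551, 693 and 1013 in the indoor libraries, and the next 3 were likewise higher in replicates 1 and 2 than in 3 and 4. The last, Spipo0G0038900.v2, stood at 657, 1498, 2284 and 1969 and was higher in replicates 3 and 4 than in 1 and 2. Pearson correlations of FPKM between pairs of the 5 ran from -0.222 to 0.941 over the 12 libraries. Their sum was 13048 ± 10400 in the indoor, 12956 ± 6262 in the middle and 4968 ± 3082 in the high group, so the uneven indoor libraries remain in the sum. The 4 members from Spipo23G0000200.v2 to Spipo23G0000600.v2 moved together, with sums of 9325, 11418, 7600 and 15047 in the indoor libraries and means of 5908 ± 824 in the middle and 6731 ± 1335 in the high group. Pearson correlations of FPKM between pairs of them ran from 0.874 to 0.971 over the 12 libraries. In high against middle with TMM scaling all 4 were called higher, as were 15.9% of the tested genes. With library totals none of the 4 was called, and none is among the members called under all 4 scalings.

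The 3 members from Spipo13G0055000.v2 to Spipo13G0055800.v2 were each highest in indoor replicate 3, and their sum was 4863 ± 2999, 3633 ± 1193 and 2259 ± 1140 in the order of temperature. Spipo1G0122200.v2, the neighbour of the member with the largest rise between middle and high temperature, had means of 916 ± 223, 1249 ± 205 and 1794 ± 188 in the order of temperature. Spipo14G0052300.v2, the neighbour of Spipo14G0052400.v2, was among the steadiest members, with means of 2719 ± 113, 2625 ± 267 and 2481 ± 275. With TMM scaling its log2 fold change between high and middle temperature was 0.73 ± 0.18 (edgeR, Benjamini-Hochberg adjusted p = 0.0089), and with library totals it was -0.08, so the sign of a member with nearly level FPKM was set by the scaling.

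**Figure D5:**
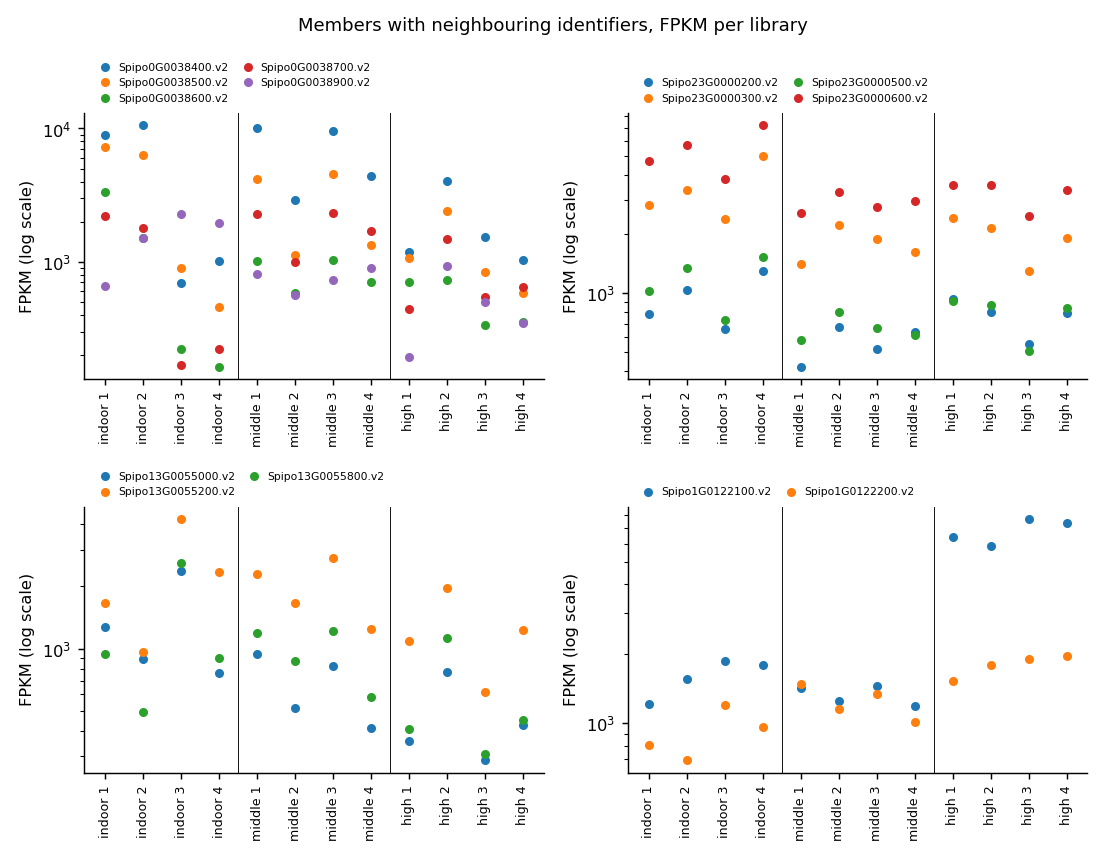
Each panel shows 1 run of members with neighbouring identifiers, with the FPKM of each member (log scale) in each of the 12 libraries. The Spipo0G00384 to 389 run spreads widely among the indoor libraries, the 4 members of the Spipo23G run rise and fall together from library to library, and Spipo1G0122100.v2 stands far above its neighbour in the 4 high libraries.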

How the data were processed

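Poly(A)-selected leaf RNA was sequenced as read pairs, per the labels' protocols. Libraries were made with dUTP strand marking and adapters carrying unique molecular identifiers, per the same protocols. In the submitters' processing notes stand edgeR, DESeq2, StringTie 1.3.4d, UMI-tools, cutadapt 1.9 and HISAT2 2.0.4, without roles. The genome build, the annotation and whether counting used strand: not given in the sources used here. The deposited table gives, per the file headers, an FPKM and a count for each gene and library. The deposited counts are proportional to FPKM within a gene up to rounding, so they are estimated counts, and were used as deposited, being already whole. Totals ran from 23655239 to 32711880 per library, and depth limits no member, whose lowest count was 722.

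Genes reaching an FPKM of 1 in 4 or more libraries (15209 genes, all 100 members among them) were tested in 1 fit of all 12 libraries with edgeR 4.0.16 (TMM, robust quasi-likelihood F-test) in R 4.3.3, with Benjamini-Hochberg adjustment over all of them and a threshold of 0.05. SE was taken as the fold change over the root of F. Library measures were compared by exact permutation in scipy 1.17.1. Alternatives used library totals, DESeq2 1.42.0, limma 3.58.1 on log2(FPKM + 1), on log2(FPKM + 0.1) and after quantile normalization, other filters, other lists, the replicate number as a block, and leaving out each library. No pair of replicates was alike within sampling noise. Deviations from the group mean correlated between same-numbered libraries with r from -0.248 to 0.232 over 12 pairs, across genes. Libraries of different number spanned a like range, from -0.238 to 0.284, so numbers were not taken as pairs. This cannot settle whether the libraries were paired.

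Members named are the 5 highest, and for each comparison up to 2 with the largest rise and up to 2 with the largest fall, called ones for high against middle; others are marked as chosen after their values were seen. Members and lists were chosen with earlier results of these data known. Lists by gene function were not analysed here, since no gene names come with the identifiers.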

Additional observations from a re-analysis of the deposited data

Results flagged for a closer look

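Of 45 sets of 4 libraries examined, 1 held a library that stood apart from the rest by Dixon's test at the 95% level, which chance alone marks in about 1 of 20 sets. The FPKM of Spipo11G0020300.v2 was 1582 in high replicate 2, against 887 to 1004 in the other high libraries, a gap of 0.832 of the range.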

How the results depend on the processing

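Counts of members are out of 100 unless stated, and "lower" and "higher" refer to the first-named group. The calls over all tested genes also moved with the setting. For high against middle 15.9% were higher and 14.5% lower with TMM, and 3.32% and 62.9% with library totals. After quantile normalization these were 12.8% and 14.4%. Where the share of tested genes is not given for a setting, nothing about the members in particular is read from its counts. High against middle, with 34 higher and 1 lower as reported, gave 7 and 27 with library totals, 7 and 27 with limma on log2(FPKM + 1), 7 and 28 with a pseudocount of 0.1, and 3 and 43 after quantile normalization; 3 were lower with DESeq2, and 0% of the 50 highest genes were lower. High against indoor, with 13 higher and 5 lower, gave 5 and 53, 5 and 51, 5 and 52, and 4 and 64 in the same order of settings, with 9 lower by DESeq2, 9% of the 200 highest genes and 8 of the 100 genes of highest count. Middle against indoor, with 3 higher, gave 5, 5, 5 and 7 in that order, 5 with DESeq2, and 0% of the 50 highest. After quantile normalization 30 members were called at neither step, against 52 as reported. The same count was 38 with DESeq2, 62 with the replicate block and 48 to 65 when single libraries were left out. DESeq2 also gave 41 higher for high against middle and 38 lower for middle against indoor, against 34 and 28 as reported. In the 50 highest genes at an unadjusted p under 0.05, edgeR also called 0 lower for high against middle. For middle against indoor it called 0 of them higher at that level. Beyond the scaling itself, the cause was not tested. Leaving out single libraries gave 21 to 39 higher and 0 to 2 lower members for high against middle, and 3 to 7 lower for high against indoor. The replicate block gave 25 higher and 1 lower for high against middle. Spipo23G0004200.v2 then lost its call, with an adjusted p of 0.0529 (edgeR, Benjamini-Hochberg), and up to 0.0749 over the alternatives. Its log2 fold change with the block was -0.68, against -0.67 as reported. Whether the numbers pair the libraries is not known. The difference in share kept its direction and stayed above 0.05 in every alternative run, where 4 against 3 libraries cannot go below an exact permutation p of 0.0571. The fits without the 10 leading high-temperature genes (-0.572 percentage points) and the lists chosen again without each indoor library (-4.23 to -3.16) were added after seeing the data.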
